A study of Mus musculus with 4 samples.

Results

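The calcium/calmodulin-dependent protein kinases (CaM kinases) are represented here by 9 genes, chosen by name: the Camk2 subunit genes Camk2a, Camk2b, Camk2d and Camk2g, the gene Camk4, the CaM kinase I genes Camk1d and Camk1g, and the upstream kinase genes Camkk1 and Camkk2. All 9 were found among the 21887 protein-coding genes of the RefSeq table for mm10. A peak was assigned to a gene when it met the gene body or the 3 kb on either side. The libraries were 3 chromatin immunoprecipitations with an antibody against TIMELESS (anti-TIMELESS) and 1 input that saw no antibody, all from hippocampus of adult C57BL/6N mice with no other allele or treatment named. The labels name no animal, so the 3 TIMELESS libraries may be technical repeats, and no RNA was measured by which to check the tissue. In bulk tissue, peaks of different cell types cannot be told apart.

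When calcium enters a neuron it binds calmodulin, and calcium-bound calmodulin switches these kinases on. The holoenzyme CaMKII, built from Camk2 subunits, is abundant at hippocampal synapses and is known for its part in long-term potentiation and memory. A second branch is a cascade in which CaMKK1 or CaMKK2 phosphorylates CaM kinase I and CaMKIV, and nuclear CaMKIV phosphorylates the transcription factor CREB. TIMELESS is known from the replication fork and from the circadian clock.

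The header of the peak list labelled TIMELESS replicate 3 names a second input as its source, so the main counts are also given without it. It is called replicate 3 below only because its label says so. Tags left after removal of duplicates numbered 8425679, 13572739 and 30454118 for TIMELESS replicates 1, 2 and 3, against 14669253 for the input. The smallest pileup of any called peak, which is the number of fragments over its summit, was 7, 8 and 12 in those TIMELESS libraries, against 11 in the input. A gene with no peak is therefore one with no site that passed the caller at that depth.

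TIMELESS peaks were found in 5 of the 9 CaM kinase genes, most of them in the long genes Camk1d, Camk4 and Camk2d. The 9 windows, 1317 kb in all, held 4 peaks of replicate 1, 14 of replicate 2 and 31 of replicate 3, against 0 of the input. The TIMELESS mean was 16.3 ± 13.7 (SD, n = 3), and without replicate 3 it was 9. Per 100 kb of window, replicates 1, 2 and 3 had 0.304, 1.06 and 2.35 peaks, against 0.201, 0.627 and 2.09 over all protein-coding genes. The input had 0, against 0.0102 over all protein-coding genes. On the assembled chromosomes replicates 1, 2 and 3 had 7454, 24659 and 89043 peaks and the input had 306. With so few input peaks, their absence from these windows says little. Of the 49 TIMELESS peaks, 20 lay in Camk1d, 18 in Camk4, 7 in Camk2d, 3 in Camkk2 and 1 in Camk2g. Camk2a, Camk2b, Camk1g and Camkk1 held none in any library, and 65.2% of all protein-coding genes likewise had no TIMELESS peak.

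Replicate 1 had a peak in 3 of the 9 genes (Camk4, Camk1d and Camkk2), where 7.75% of all protein-coding genes had one. Replicate 2 had a peak in 5 of the 9, all but the 4 empty genes, against 17.3% of all. Replicate 3 had a peak in 3 of the 9 (Camk2d, Camk4 and Camk1d), against 30.2%. Input peaks fell in 0 of the 9 and in 0.434% of all protein-coding genes. The median pileup of the peaks in these genes was 10.5, 13 and 23 in replicates 1, 2 and 3, against 13, 15 and 24 over all peaks of those libraries. The median fold was 5.02, 4.79 and 3.86, against 4.91, 4.41 and 3.63 over all their peaks. The peaks themselves were thus near the middle of each library. The shares of genes above do not allow for length: the median length was 62.8 kb among the CaM kinase genes, against 17.2 kb over all protein-coding genes.

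**Figure D1:**
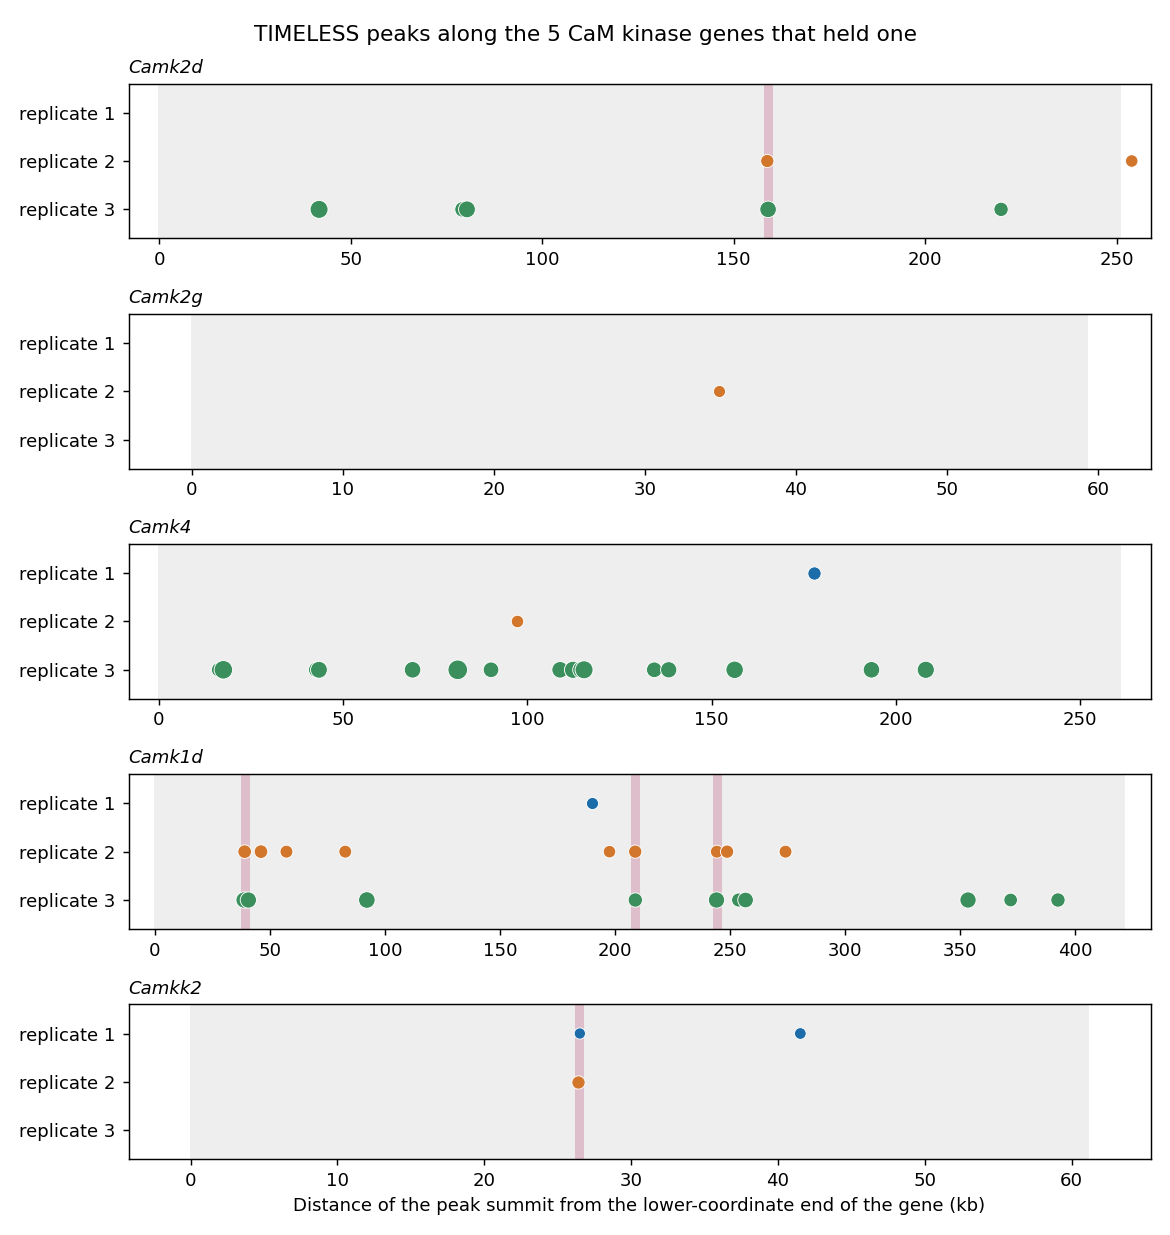
Summits of TIMELESS peaks along Camk2d, Camk2g, Camk4, Camk1d and Camkk2, by library; the x axis is the distance from the gene's lower-coordinate end in kb, dot area grows with pileup, grey marks the gene body and red bars mark sites shared by 2 libraries. The 16 replicate 3 peaks of Camk4 have no partner in another library, while Camk1d holds 3 shared sites.

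Sites met by more than 1 library were read as shared sites: merged regions with a peak of at least 2 TIMELESS libraries and no input peak. There were 5, of which 3 lay in Camk1d, 1 in Camk2d and 1 in Camkk2. So 3 of the 9 genes held a shared site, against 9.92% of all protein-coding genes and a mean of 29.3% over genes of like length, which are the 100 protein-coding genes closest in length to each member. No region held peaks of all 3 libraries, 0 of 9 genes, against 4.18% of all protein-coding genes and 11.4% of genes of like length. The share of 3 in 9 was thus close to that of genes of the same length. All 5 sites lay inside gene bodies, and 10 of the 49 peaks belonged to them.

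Which libraries met differed between the sites. Replicates 2 and 3 met at the Camk2d site and at all 3 Camk1d sites, and replicates 1 and 2 met at the Camkk2 site. Replicate 2 was thus part of every one. Over the genome, 8481 of the 11957 shared sites were of 2 libraries only, with 6446 from replicates 2 and 3, 1284 from replicates 1 and 2, and 751 from replicates 1 and 3. Without replicate 3 only the Camkk2 site was left, in 1 of 9 genes, against 5.54% of all protein-coding genes and 15.6% of genes of like length. Without replicate 1 the other 4 sites were left, in 2 of 9 genes, against 8.48% of all protein-coding genes and 25.6% of genes of like length. Without replicate 2 there were 0, against 4.79% and 13.4%.

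No peak met a start site that could be looked up. The RefSeq promoter table held 7 start sites of 6 of the genes (Camk2b, Camk2d, Camk1d, Camk1g, Camkk1 and Camkk2). Among peaks in the genes, the summit nearest to a start site was of replicate 3, in Camk1d, 10.0 kb upstream of the inner of its 2 start sites. A replicate 2 peak outside Camk2b lay 5.13 kb from the window before that gene's start, and none of the 250-base windows before the 7 start sites met a TIMELESS peak. These windows were searched on both strands for the E-box CACGTG, the element bound by clock transcription factors, and for TGACG, part of the cAMP response element bound by CREB. The E-box was in 0 of the 7 windows, against 6.02% of 32851 RefSeq promoter windows of the same length. TGACG was in 1 of the 7, that of Camkk1, against 17.8%. These counts describe the letters of the windows only.

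The windows of the 3 genes with a shared site and of Camkk1 are shown because they are the sequence nearest to transcription start where no peak was found. They are RefSeq sequence of GRCm38.p6, 5′ to 3′ on the gene's strand and ending just before the start site, with capitals marking TGACG or its reverse complement. They lie at chr3:126596701-126596950 (plus strand) for Camk2d, chr2:5714763-5715012 (minus strand) for the outer start of Camk1d, chr5:122779411-122779660 (minus strand) for Camkk2 and chr11:73018738-73018987 (plus strand) for Camkk1. GC content was 68.4%, 69.2%, 72.4% and 74.4% in that order, against a median of 52.4% over all windows. Of the 3 windows not shown, that of Camk2b had 78.4%, that of Camk1g 44.8% and that of the inner Camk1d start 48.4%.
Camk2d: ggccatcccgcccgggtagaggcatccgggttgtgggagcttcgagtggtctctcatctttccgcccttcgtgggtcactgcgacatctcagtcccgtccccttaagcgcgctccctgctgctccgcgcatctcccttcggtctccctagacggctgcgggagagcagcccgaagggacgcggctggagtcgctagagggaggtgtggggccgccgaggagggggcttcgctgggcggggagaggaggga
Camk1d: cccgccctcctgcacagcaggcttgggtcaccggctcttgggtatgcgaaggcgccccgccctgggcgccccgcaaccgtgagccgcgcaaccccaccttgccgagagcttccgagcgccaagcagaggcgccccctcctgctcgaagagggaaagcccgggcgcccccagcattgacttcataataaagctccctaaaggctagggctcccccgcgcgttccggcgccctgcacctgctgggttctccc
Camkk2: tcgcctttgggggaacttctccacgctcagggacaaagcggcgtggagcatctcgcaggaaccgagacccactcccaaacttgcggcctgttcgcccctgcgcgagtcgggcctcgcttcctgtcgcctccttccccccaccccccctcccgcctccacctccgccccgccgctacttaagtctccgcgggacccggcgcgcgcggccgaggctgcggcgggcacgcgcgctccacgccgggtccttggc
Camkk1: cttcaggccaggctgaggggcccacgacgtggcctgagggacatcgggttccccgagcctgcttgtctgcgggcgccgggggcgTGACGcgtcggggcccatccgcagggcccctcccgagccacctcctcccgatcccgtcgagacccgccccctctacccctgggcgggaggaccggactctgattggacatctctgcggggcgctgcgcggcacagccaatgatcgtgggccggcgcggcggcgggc

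Camk2d encodes the delta subunit of CaMKII, which is known above all from heart muscle and is also made in brain. The gene spans 250.8 kb of chromosome 3 (126595487 to 126846326, mm10). Its shared site lay at 126754034 to 126754632, 157.4 kb downstream of the RefSeq start site. There, replicate 2 had a pileup of 14 and replicate 3 a pileup of 24, with no peak in replicate 1. The folds, which set the pileup against the background the caller estimated around the peak in the same library, were 5.13 and 4.78, a mean of 4.95 ± 0.251 (SD, n = 2), so both libraries gave nearly the same fold. It was the only one of the 5 sites at which both peaks had −log10 q of at least 5.

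The other Camk2d peaks were of 1 library each. Replicate 3 had 4 more in the gene body with pileups of 29, 21, 25 and 17, the first of which had the highest fold of all replicate 3 peaks in these genes (5.73). Replicate 2 had 1 more, with a pileup of 12, in the flank beyond the gene's upper end. It was the only 1 of the 49 summits outside a gene body.

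Camk1d, a CaM kinase I gene expressed in brain, is the longest of the 9. It spans 421.4 kb of chromosome 2 (5293457 to 5714860) on the minus strand. The first shared site, at 5332220 to 5332701, had pileups of 15 and 23 in replicates 2 and 3 and folds of 3.52 and 2.79. The second, at 5502128 to 5502517, had pileups of 14 and 17 and folds of 5.13 and 3.44. The third, at 5537438 to 5537833, had pileups of 13 and 23 and folds of 4.69 and 4.59. The first site had the lowest folds although its pileups were among the higher ones. The caller's background there was 1.85 and 1.79 times that of the genome in replicates 2 and 3, against 1.03 times or less at the others.

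The 3 sites lay 382.3, 212.4 and 177.1 kb downstream of the upstream RefSeq start site. Replicate 1 had a single peak in Camk1d, with a pileup of 11 and a fold of 5.24. It lay 7.23 kb from the nearest replicate 2 peak, and both fell on Gm36853, a long noncoding RNA gene inside Camk1d. Replicate 2 had 6 further peaks and replicate 3 had 7, none of which met another library.

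Camkk2 encodes the kinase that phosphorylates and activates CaM kinase I, CaMKIV and AMP-activated protein kinase. It spans 61.1 kb of chromosome 5 (122718380 to 122779522) on the minus strand. Its shared site, at 122744630 to 122745022, lay 34.6 kb downstream of the start site. The pileups were 9 in replicate 1 and 14 in replicate 2, which per 10000000 tags kept were 10.7 and 10.3, a mean of 10.5 ± 0.259 (SD, n = 2). The folds were 4.37 and 5.13, a mean of 4.75 ± 0.539. Replicate 3, the deepest library, had no peak here and its nearest was 23.1 kb from the gene. Replicate 1 had 1 further peak in Camkk2 with a pileup of 10.

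Within each library, pileups at the 5 sites were at or below the median of that library's peaks in sites of exactly 2 libraries, and folds lay on both sides of it. In replicate 2 the pileups were 13 to 15, against a median of 15, and 4 of the 5 folds were above the median of 4.40. In replicate 3 the pileups were 17 to 24, against 29, and 2 of the 4 folds were above 3.46. In replicate 1 the Camkk2 pileup of 9 compares with 12 and its fold of 4.37 with 4.81.

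Pooled over libraries, the scaled pileup had a median of 9.10 per 10000000 tags kept, against 11.1 over all sites of exactly 2 libraries and 12.1 over all shared sites. This was, to the value over all shared sites, a ratio of 0.755. That pooled value mixes library pairs, and 4 of the 5 sites are of replicates 2 and 3. Ratios of medians taken within each library apart had an SD of 0.0905 over 3 libraries, with replicate 1 represented by 1 peak. That SD is not the spread of the pooled ratio. The smaller of the 2 folds had a median of 4.37 over the 5 sites, against 3.62 over all sites of exactly 2 libraries and 3.68 for the smallest fold over all shared sites. By that measure 18.8% of all shared sites exceeded the Camk2d site, and 85.3% exceeded the first Camk1d site.

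Summits of the 2 libraries lay 48 to 254 bp apart in these sites, with a median of 139 bp, against 90 bp over all sites of exactly 2 libraries. The second Camk1d site had the closest summits, and its shorter peak lay wholly inside the longer one. In the others the overlap was 73.7% to 99.2% of the shorter peak. Requiring 50% of the shorter peak to overlap left all 5.

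**Figure D2:**
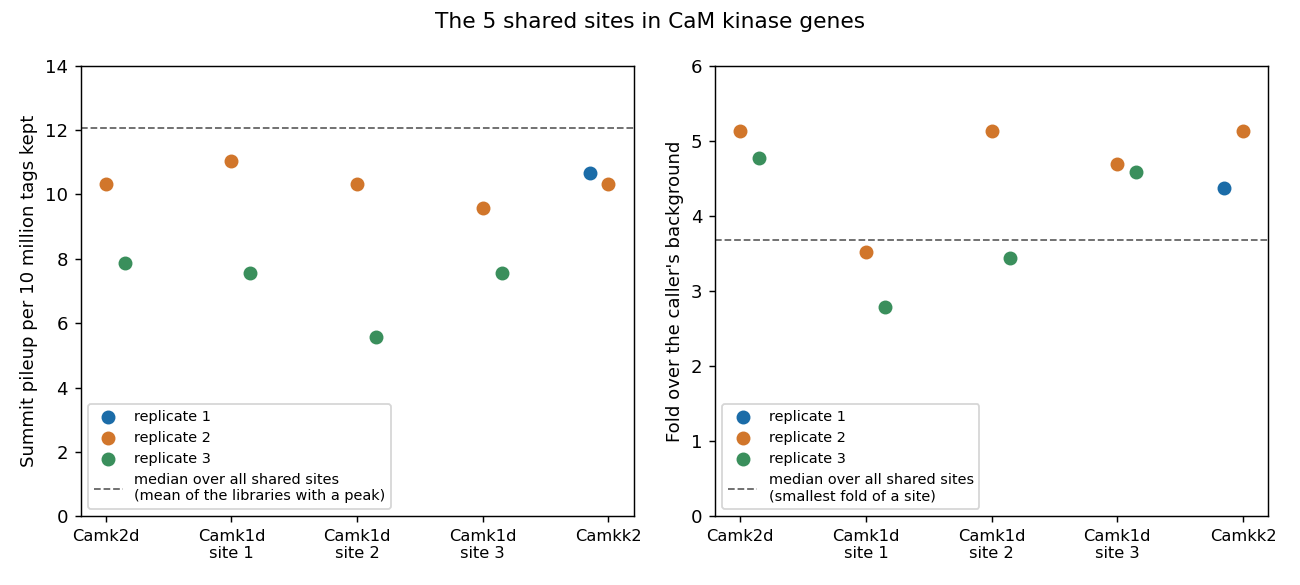
Summit pileup per 10000000 tags kept (left axis of the left plot) and fold over the caller's background (right plot) at the 5 shared sites, 1 dot per library with a peak; dashed lines are medians over all shared sites. All dots in the left plot lie below 12.1, while 3 sites have both folds above the line of 3.68.

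Camk4 encodes CaMKIV, the kinase of neuronal nuclei that phosphorylates CREB. It spans 260.8 kb of chromosome 18 (32934941 to 33195767). Replicate 1 had 1 peak, replicate 2 had 1 and replicate 3 had 16, and none of the 18 met a peak of another library. The replicate 1 peak had a pileup of 14 and a fold of 6.55, the highest fold of any peak in these 9 genes. The replicate 2 peak had a pileup of 12 and a fold of 3.49. The replicate 3 peaks lay 6.61 to 53.8 kb from the nearest peak of replicate 1 or 2.

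The 16 replicate 3 peaks had pileups of 17 to 35 with a median of 24.5, and folds of 2.37 to 5.35 with a median of 3.93. They differed by background. The 6 peaks between 81.1 and 115.4 kb from the lower end of the gene had a background over 1.5 times that of the genome, up to 2.35 times, and folds of 2.37 to 3.53 at pileups of 21 to 35. At 5 other peaks the caller used the genome-wide background, and pileups of 23 to 27 gave folds of at least 4.59. At the remaining 5 peaks the background was 1.06 to 1.25 times that of the genome. The replicate 2 peak of Camk4 lay in the same middle stretch and had a background of 1.42 times that of the genome. At −log10 q of at least 5, 11 of the 16 were left.

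**Figure D3:**
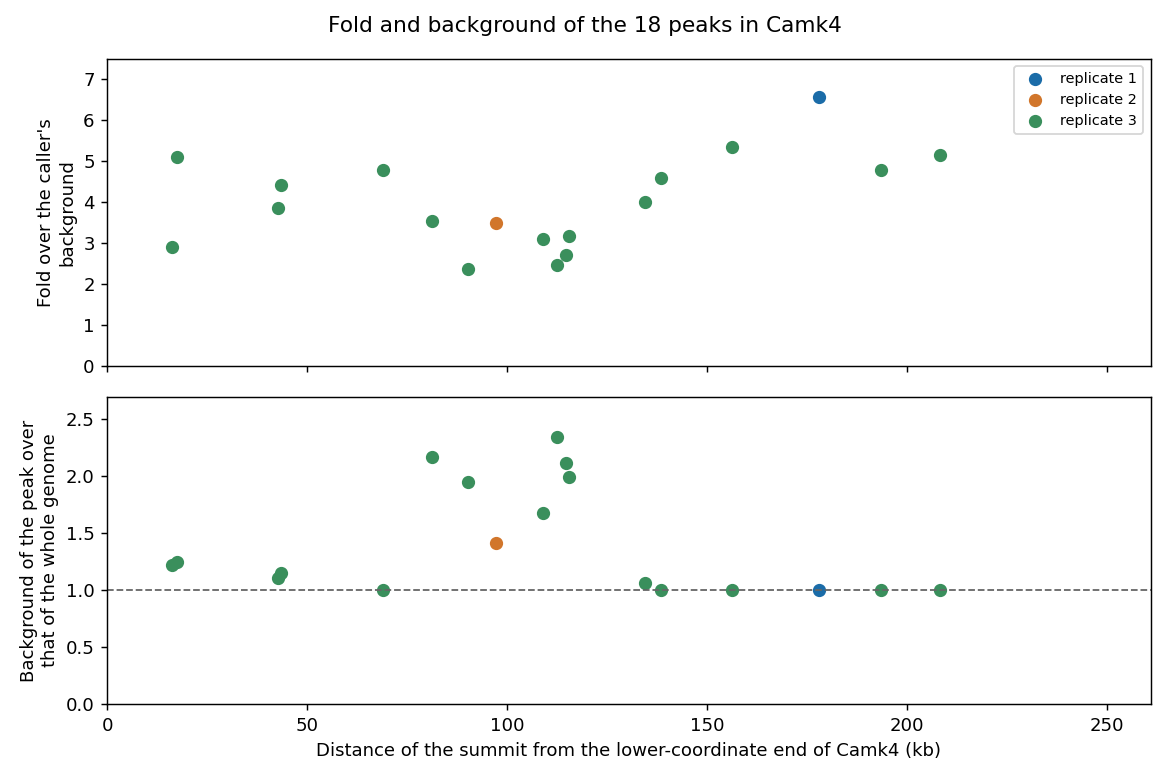
Fold (upper plot) and background relative to the genome-wide background of the same library (lower plot) for the 18 peaks in Camk4 against distance of the summit from the gene's lower-coordinate end in kb, 1 dot per peak. Replicate 3 peaks between 81.1 and 115.4 kb have the raised background, up to 2.35, and folds no higher than 3.53.

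Of the 100 genes of like length to Camk4 (245.5 to 276.5 kb), 3 had more than 16 replicate 3 peaks and the median was 6. All 3 of those genes held a shared site, and 51 of the 100 did. In replicate 2 the order was turned round, with 1 peak in Camk4 against a median of 2, and 54 of the 100 genes had more. Over all protein-coding genes, 262 had 16 or more replicate 3 peaks, and 16 of them, Camk4 included, or 6.11%, held no shared site. Camk4 was singled out here after its values were seen. When replicate 3 was reduced to its strongest peaks, as many as replicate 2 had, 5 peaks were left in Camk4. Without replicate 3 Camk4 held 2 peaks.

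Camk1d stood apart from genes of its length in another library. Its 9 replicate 2 peaks were equalled by 1 and exceeded by 0 of the 100 genes nearest in length (387.1 to 454.8 kb), whose median was 3. These 9 peaks had pileups of 12 to 15, against a library median of 15, and −log10 q of 3.12 to 6.05. All 9 genes were compared in this way in each of the 3 libraries, and Camk1d is picked out here by its values. In replicate 3 its 10 peaks equalled the median of 10, and in replicate 1 its 1 peak equalled the median of 1. With 3 shared sites it was exceeded by 8 of the 100 genes, where the median was 1. A site of all 3 libraries was found in 40 of those genes and not in Camk1d.

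The 3 genes among these 100 whose peak density in the 3 TIMELESS libraries was nearest to that of Camk1d were Zmat4, Slc4a4 and Trhde. Camk1d had 0.234, 2.11 and 2.34 peaks per 100 kb in replicates 1, 2 and 3. Zmat4 had 0.237, 1.19 and 2.37 peaks per 100 kb, Slc4a4, a sodium bicarbonate cotransporter gene, had 0.221, 1.55 and 3.10, and Trhde, which encodes the enzyme that degrades thyrotropin-releasing hormone, had 0.244, 1.22 and 2.69. The Euclidean distances over these 3 densities were 0.921, 0.941 and 0.950 peaks per 100 kb. Each of the 3 genes held 1 site of all 3 libraries, which Camk1d lacked.

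Camk2d lay near the middle of its length class. It had 0, 2 and 5 peaks in replicates 1, 2 and 3, against medians of 0, 2 and 6 in the 100 genes nearest in length, and 1 shared site against a median of 1. Camkk2 was above its class in replicate 1, where its 2 peaks were equalled by 3 and exceeded by 0 of 100 genes and 89 of them had none. In replicate 2 it had 1 peak against a median of 0, and 5 of the 100 genes had more. In replicate 3 it was below its class, with 0 peaks against a median of 1, and 55 of the 100 genes had more. Its 1 shared site compares with 15 of 100 genes of like length that held any. Only Camk1d and Camkk2 had more shared sites than the median gene of their length.

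**Figure D4:**
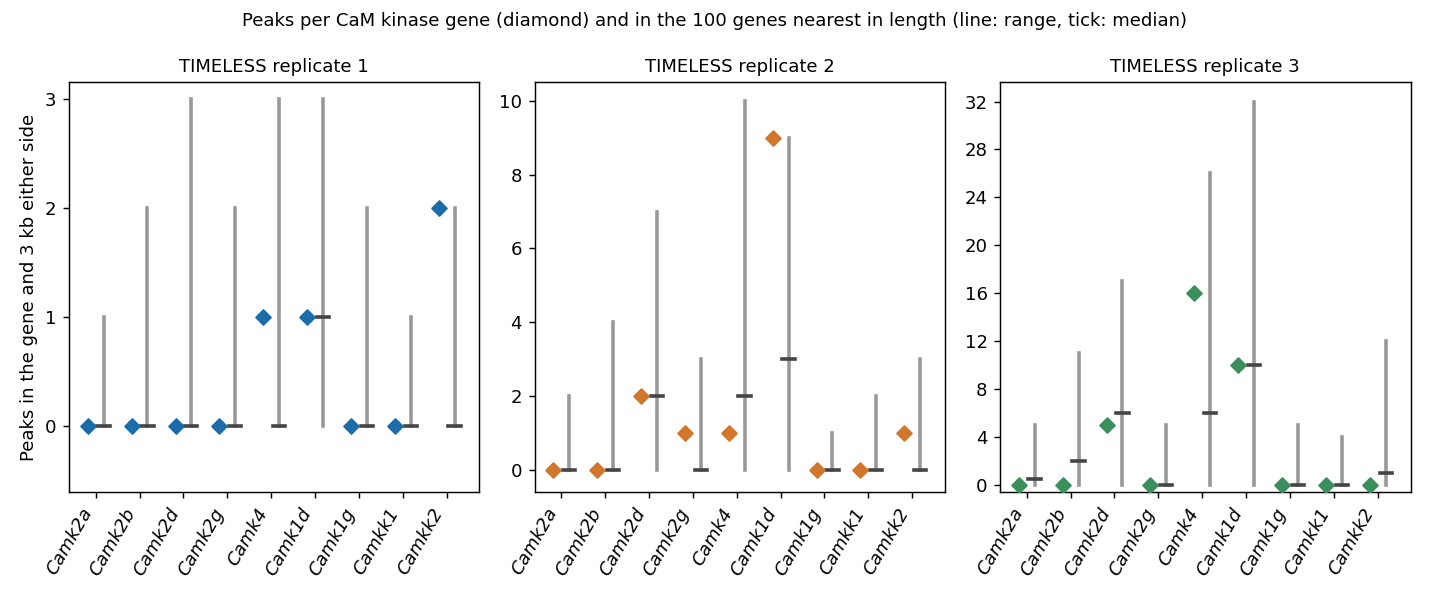
Peaks per CaM kinase gene in each TIMELESS library (diamonds) and, to the right of each, the range (line) and median (tick) over the 100 protein-coding genes nearest in length; the y axis counts peaks in the gene and 3 kb either side. Camk1d in replicate 2 (9 peaks), Camkk2 in replicate 1 (2 peaks) and Camk4 in replicate 3 (16 peaks, median 6) sit high in their ranges.

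The other 5 genes held no shared site, and 4 of them no peak. Camk2a, the alpha subunit of CaMKII and a marker of forebrain excitatory neurons, spans 62.8 kb of chromosome 18 (60925307 to 60988152). Its nearest peaks lay 194.2, 45.8 and 176.8 kb from the gene in replicates 1, 2 and 3. Camk2b, the beta subunit, which binds actin filaments, spans 96.7 kb of chromosome 11 (5969629 to 6066357). A replicate 2 peak lay 4.77 kb outside it, just beyond the 3 kb window. Among the 100 genes nearest in length to Camk2a and to Camk2b, 41 and 24 likewise had no TIMELESS peak.

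Camk2g, the gamma subunit, spans 59.3 kb of chromosome 14 (20734873 to 20794157) and held 1 peak of replicate 2 with a pileup of 11 and a fold of 4.10. That peak lay 52.8 kb from the nearest peak of another library. Camk1g, a CaM kinase I gene of 24.0 kb on chromosome 1 (193346346 to 193370355), had its nearest peaks 118.2, 90.0 and 75.6 kb away in replicates 1, 2 and 3. Camkk1, the other upstream kinase gene, of 26.0 kb on chromosome 11 (73016043 to 73042073), had them 325.9, 112.7 and 79.2 kb away. Of 100 genes of like length, 67 for Camk1g and 58 for Camkk1 had no TIMELESS peak. For genes this short, no peak was the more common outcome.

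Other genes of the CaM kinase pathway held shared sites about as often as genes of their length when all 3 libraries were used. Of 49 genes in 3 lists, 10 held a shared site (20.4%), against 23.6% on average among genes of like length. Without replicate 3 the count was 5, where 5.54% of all protein-coding genes held a shared site. Without replicate 2 it was 3, where 4.79% of all did. These 2 shares over all genes do not allow for length. None of the 49 held an input peak, and only 0.434% of all protein-coding genes did. Of 24 substrates and partners 8 held one, against 33.1% among genes of like length. Of 13 further kinases of the family 2 did, against 18.7%. Of 12 genes of calmodulin and its regulators 0 did, against 9.75%. Of these 12 genes, 9 held no TIMELESS peak, where 65.2% of all protein-coding genes had none. They include the CaMKII inhibitor genes Camk2n1 (4.98 kb) and Camk2n2 (2.06 kb), and the median length of the 12 was 22.2 kb.

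Sites of all 3 libraries, which no CaM kinase gene had, occurred in 3 of the 24 substrates and partners, against 4.18% of all protein-coding genes. Tiam1 and Cacna1c each held 2 shared sites, of which 1 was of all 3 libraries, and folds are given for that 1. Tiam1, a Rac exchange factor that binds CaMKII, had a site on chromosome 16 at 89939565 to 89940134. Its fold was 11.3 in replicate 1, 9.70 in replicate 2 and 7.07 in replicate 3 (mean 9.35 ± 2.12, SD, n = 3). Cacna1c, the pore subunit of an L-type calcium channel, had 5.05, 5.66 and 4.20, a mean of 4.97 ± 0.731. Hdac9, a class IIa histone deacetylase of the kind CaM kinases phosphorylate, had 6.05, 4.45 and 3.44, a mean of 4.64 ± 1.31. The Tiam1 folds exceeded every fold in the CaM kinase genes. All 3 are long genes, and 70, 84 and 91 of the 100 genes nearest in length to Tiam1, Cacna1c and Hdac9 held a shared site. Those counts are of sites of 2 or 3 libraries. Sites of all 3 libraries were not counted in genes of these lengths, so the 3 of 24 cannot be set against them.

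The folds that follow are of 1 shared site per gene, although Kalrn held 2 and Mylk held 3. In 2 libraries only, Kalrn had folds of 5.47 and 5.54 in replicates 2 and 3, and Gria1, an AMPA receptor subunit that CaMKII phosphorylates, had 5.24 and 5.16. The myosin light chain kinase gene Mylk had 4.81 and 6.16 in replicates 1 and 2, and the doublecortin-like kinase gene Dclk1 had 5.24 and 4.79 in the same pair. Mef2a, a transcription factor gene of the MEF2 family, had 4.11 and 4.58 in replicates 2 and 3. Creb1 held 5 peaks, all of replicate 3, and Grin2b, whose product anchors CaMKII at the synapse, held 1 of replicate 2 and 3 of replicate 3, none of them shared.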

How the data were processed

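Peaks were measured by ChIP-seq in 3 TIMELESS libraries and 1 input, grouped by their labels. Per the file headers, the authors called peaks with MACS 2.1.2 for each library alone, with no control, at a q value cutoff of 0.05, on reads of 101 bp, keeping 1 tag at each position. Bowtie2 2.4, SAMtools 1.14, MACS2 2.1.1, deepTools 2.0 and build mm10 are named in the submitters' processing notes. The deposited pileup is a signal, the number of fragments at the summit with no scaling by depth. The deposited fold is a ratio of pileup to the caller's background, and p-values and q-values were deposited as −log10 values.

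Background was recovered by taking fold as (pileup + 1)/(background + 1), and the smallest background so recovered matched, within 1%, the genome-wide value computed from tags, fragment length and genome size in each header. Peaks were merged over TIMELESS libraries at 1 bp of overlap, and regions over input peaks were left out. Genes of like length were the 100 protein-coding genes nearest in length, with the 9 members left out. All values are descriptions: 3 libraries against 1 cannot give an exact permutation p below 0.25. The members and pathway lists were chosen with earlier results of these data known. Named genes were all 9 members, up to 8 pathway genes with a shared site ranked by libraries and smallest fold, and 3 genes nearest to Camk1d in peak density; Creb1 and Grin2b and genes without sites were named after their values were seen. The overlap code was tested on simulated data. Python 3.11.15 and pandas 2.3.3 were used. No genome sequence was used here, so the sequence of the sites and their place in exons or introns were not analysed here.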

Additional observations from a re-analysis of the deposited data

How the results depend on the processing

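The count of 5 shared sites depended on peak strength and on which libraries were used. The share of all protein-coding genes with a shared site fell under the same settings. At −log10 q of at least 5, shared sites fell to 1 in 1 CaM kinase gene (Camk2d), with 1 gene above the median of its length class and 4 pathway genes with a site. At that cutoff 5.57% of all protein-coding genes and 17.3% of genes of like length to the members held one. At fold of at least 5 there were 0 sites in 0 genes, 0 above the median, and 4 pathway genes. The shares there were 3.76% of all protein-coding genes and 10.9% of genes of like length to the members. Leaving out 1 TIMELESS replicate at a time gave 0 to 4 sites in 0 to 2 genes, 0 to 2 genes above the median, and 3 to 9 pathway genes. Without replicate 1 the members had 4 sites in 2 genes, against 8.48% of all protein-coding genes and 25.6% of genes of like length with one. Without replicate 2 the members had 0 sites, against 4.79% of all protein-coding genes and 13.4% of genes of like length with one. Without replicate 3 the members had 1, against 5.54% and 15.6%, and 5 pathway genes held one. With replicate 3 reduced to its strongest peaks, a setting chosen after seeing the data, 2 sites were left, in Camk2d and Camkk2. The shares with a site were then 7.30% of all protein-coding genes and 21.4% of genes of like length. A site of all 3 libraries cannot be counted with a library left out, and its count was 0 under each other setting. Gene bodies alone, 10 kb either side, a stricter overlap, regions over input peaks kept, and 50 or 200 genes of like length each left 5 sites in 3 genes, with 2 above the median. The share of all protein-coding genes with a site was 8.82% for gene bodies alone and 13.8% for 10 kb either side. Among genes of like length it ran from 28.3% with the stricter overlap to 32.6% for 10 kb either side. The scaled pileup ratio ranged from 0.683 to 0.788. The lowest value, without replicate 3, rests on 1 site, and without replicate 2 there was no site to measure. With at most 24 fragments at any of these summits in any library, each value rests on few reads, and the causes of these shifts were not tested. No paired analysis was possible because there was 1 input library and no test between groups.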

Other observations

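The 16 protein-coding genes with 16 or more replicate 3 peaks and no shared site were Camk4 and Ano3, B3galt1, Cdkal1, Chrm3, Csmd3, Frmpd4, Fstl5, Hs3st5, Kcnn2, Nav3, Sema3a, Spock3, Thrb, Trpc5 and Ube2e2. They were listed after the values of Camk4 were seen, and they include a muscarinic receptor gene (Chrm3), a calcium-activated potassium channel gene (Kcnn2) and a thyroid hormone receptor gene (Thrb). The 262 genes with that many replicate 3 peaks had a median length of 570.1 kb, against 260.8 kb for Camk4.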
